A study of Mus musculus with 2 samples.

Results

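Oligodendrocyte precursor cells (OPCs) were examined in the mouse dorsal telencephalon at embryonic day 16.5. They were chosen by their own transcripts. A cell entered the OPC class when it held at least 2 unique molecular identifiers (UMIs, each counting 1 captured transcript) of Pdgfra and Sox10 together, at least 1 UMI of Olig1 or Olig2, and none of Col1a2 or Eomes. This rule found 71 OPCs among 16348 cells that held 1500 to 60000 UMIs and less than 10% mitochondrial UMIs. The 7 genes used to define classes (Pdgfra, Sox10, Olig1, Olig2, Col1a2, Eomes and Sox9) are therefore described below and were not tested.

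The cells came from 2 wild-type (WT) libraries of a droplet single-cell RNA sequencing series, referred to here as WT replicate 1 and WT replicate 6 after their numbers in the labels. The series studied a conditional Dot1l knockout made with Emx1-Cre, which acts in dorsal telencephalic progenitors and their descendants; whether these WT embryos carried Cre or a floxed allele is not given by the labels. The tissue is labelled as brain hemispheres, and the protocol describes dorsal telencephalon dissociated with papain. The study states C57BL/6J mice for its single-cell data. Knockout samples were not analysed here, and no label states whether the libraries came from separate embryos, so each p-value measures only the spread between these 2 libraries. They did differ in sex-linked transcripts, with 76258 Xist UMIs and 5 Ddx3y UMIs in replicate 1 against 10 and 2193 in replicate 6. Any difference between the replicates therefore cannot be told apart from a difference in sex.

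OPCs are proliferating and migrating progenitors of the central nervous system that give rise to myelinating oligodendrocytes. They are recognised by PDGFRA, the receptor through which PDGF-A drives their division, and by the transcription factors OLIG1, OLIG2 and SOX10, of which SOX10 later activates the myelin genes. In the forebrain the earliest OPCs arise from ventral progenitors and migrate into the cortex, and dorsal progenitors add a later wave.

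The 4 gate genes were read from every OPC. Pdgfra reached a median of 6 UMIs per OPC in replicate 1, with a range of 1 to 21, and a median of 5 in replicate 6, with a range of 1 to 35. Its summed level was 620 and 753 CPM (UMIs of the gene for every 1000000 UMIs of the summed cells) in the OPCs of replicates 1 and 6, against 8.25 and 6.62 in all other cells. Sox10 was detected in 66.7% and 62.1% of the OPCs. Its level was 149 and 154 CPM. Olig1 was detected in 97.6% and 86.2% of the OPCs, at 653 and 746 CPM. Olig2 was detected in 76.2% and 89.7%, at 320 and 346 CPM. These values follow from the rule and describe the members only.

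Most OPCs met the rule with more than the minimum. Of the 71, 46 held both Pdgfra and Sox10, 25 held Pdgfra without Sox10, and none held Sox10 alone. Both Olig genes were present in 53, Olig1 alone in 13 and Olig2 alone in 5. The Pdgfra and Sox10 step was passed by 281 cells, of which 77 also held Olig1 or Olig2. Col1a2 then removed 2 cells and Eomes 4. Among the cells with at least 2 Pdgfra UMIs, 170 held Col1a2, a collagen gene of fibroblasts, which also carry PDGFRA. Sox10 was present in 111 cells in all, 65 of them outside the class, and 19 of those had at least 2 Sox10 UMIs with no Pdgfra.

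The promoter sequences of 4 genes are shown. These are the gate genes Pdgfra and Olig2, and Serpine2 and Tnr, 2 OPC genes described below whose windows hold the letters marked here. Each line gives the 250 bases before the RefSeq start site on the strand of the gene (build GRCm38.p6, the same assembly as mm10), 5′ to 3′. Pdgfra lies at chr5:75152001-75152250 on the plus strand, Olig2 at chr16:91225300-91225549 on the plus strand, Serpine2 at chr1:79858666-79858915 on the minus strand, and Tnr at chr1:159523519-159523768 on the plus strand. Capitals mark the core letters that SOX factors are known to bind, ACAAAG or ACAATG on either strand.
Pdgfra: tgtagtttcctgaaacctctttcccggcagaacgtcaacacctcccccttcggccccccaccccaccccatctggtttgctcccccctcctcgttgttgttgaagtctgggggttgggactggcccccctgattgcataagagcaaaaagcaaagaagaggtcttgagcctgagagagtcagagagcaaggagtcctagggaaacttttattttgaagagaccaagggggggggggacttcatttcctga
Olig2: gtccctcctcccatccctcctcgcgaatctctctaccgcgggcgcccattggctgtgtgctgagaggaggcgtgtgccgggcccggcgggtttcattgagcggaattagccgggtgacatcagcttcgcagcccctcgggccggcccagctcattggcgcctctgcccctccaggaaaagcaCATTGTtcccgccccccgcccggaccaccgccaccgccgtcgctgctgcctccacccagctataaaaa
Serpine2: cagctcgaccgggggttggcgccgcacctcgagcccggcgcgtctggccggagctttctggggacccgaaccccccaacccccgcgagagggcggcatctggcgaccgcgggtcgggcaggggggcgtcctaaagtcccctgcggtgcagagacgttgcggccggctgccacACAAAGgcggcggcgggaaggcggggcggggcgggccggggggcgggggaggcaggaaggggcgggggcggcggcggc
Tnr: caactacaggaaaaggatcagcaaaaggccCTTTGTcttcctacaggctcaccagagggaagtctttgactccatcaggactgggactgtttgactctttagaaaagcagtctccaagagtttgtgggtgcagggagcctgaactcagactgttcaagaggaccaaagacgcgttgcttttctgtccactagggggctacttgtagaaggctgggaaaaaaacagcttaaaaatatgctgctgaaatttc
The Pdgfra window held no such letters. Nor did the windows of Lhfpl3, Col19a1, Cspg4 and Nkx2-2, not shown, which differed more from radial glia than Serpine2 and Tnr. The letters began at -68 from the start site in Olig2, -78 in Serpine2 and -220 in Tnr. Of the 23 OPC identity genes that were higher in OPCs than in radial glia, 16 had a window in the RefSeq table, and 4 of their 17 windows (23.5%) held the motif. Among all 32851 windows, 8292 (25.2%) held it. These matches describe letters only.

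OPCs made up 0.516% of the passing cells in replicate 1 (42 of 8139, 95% Wilson interval 0.382 to 0.697%) and 0.353% in replicate 6 (29 of 8209, 0.246 to 0.507%), with a mean of 0.435% ± 0.115 (SD, n = 2). The intervals overlapped and cover counting error only. When both Pdgfra and Sox10 were required (the stricter gate), the mean share was 0.282%. The OPCs held 789856 UMIs together. Their depth ran from 1741 to 46354 UMIs per cell in replicate 1 and from 1610 to 23789 in replicate 6, with medians of 10428.5 and 10462. The deepest OPC supplied 9.71% and 7.62% of the OPC UMIs of its library. The libraries shared 59 cell barcodes, and 1 OPC carried a shared barcode.

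Members just at the Pdgfra and Sox10 threshold were compared with cells just below it, as a description. The 7 OPCs with exactly 2 UMIs of Pdgfra and Sox10 included 4 with Lhfpl3, which was not part of the rule, 2 with Cspg4 and 6 with Xylt1. Of the 14 cells that met the other conditions with 1 UMI, 1 held Lhfpl3, 2 held Cspg4 and 12 held Xylt1. Among the 64 OPCs above 2 UMIs, 58 held Lhfpl3, 50 Cspg4 and 62 Xylt1. The share with Xylt1 was thus the same, at 85.7%, on both sides of the threshold, but the depth was not. Median depth was 9119 UMIs at the threshold and 13873.5 below it, and Xylt1 stood at 1260 and 498 CPM. Pcdh15 was held by 4 of the 7 and 2 of the 14, and Gpr17 by 1 and 0.

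The OPC label was checked against markers of other cell types. Radial glial markers were high, at 4137 and 7744 CPM in the OPCs of replicates 1 and 6 and at 3845 and 4454 in radial glia, and 35 of the 42 and 26 of the 29 OPCs held at least 5 of their UMIs. Of this sum, 3813 and 7174 CPM were Fabp7. Markers of excitatory neurons summed to 168 and 109 CPM in the OPCs, and to 704 and 761 in radial glia. Interneuron markers summed to 214 and 19.2, against 658 and 600 in radial glia. In the OPCs, most of the interneuron signal lay in few cells, and 68% of the Dlx6os1 UMIs came from a single cell of replicate 1. Endothelial markers were above radial glia, with 509 and 269 CPM in OPCs against 213 and 231. Among them, Cldn5 gave 72, 40 and 49 UMIs in 3 OPCs and at most 1 in any other. Markers of Schwann or olfactory ensheathing cells, which also carry SOX10, were above radial glia too, with 35.6 and 32.0 against 27.7 and 25.5. For 6 cell types (excitatory neurons, interneurons, microglia, endothelial, mural and fibroblast cells), at least 5 UMIs of a type's markers were found in 11 OPCs: 6 for excitatory neurons, 3 for endothelial cells, 2 for interneurons and 2 for mural cells, with some cells counted under more than 1 type. Outside these 6 types, 5 UMIs were reached by 5 and 3 OPCs of replicates 1 and 6 for intermediate progenitors, by 0 and 1 for Schwann or olfactory ensheathing cells, and by 37 and 29 for the red blood cell list. This last count was not particular to OPCs. The red blood cell list reached 5 UMIs in 96.5% and 96.9% of radial glia and in 97.0% and 97.2% of all other cells. Its level was 921 and 1252 CPM in OPCs and 2380 and 2807 in radial glia. No OPC reached 5 UMIs of the microglial or the fibroblast markers. C1qb of microglia, Col1a1 and Col3a1 of fibroblasts, and Foxd3 and Frzb of Schwann or olfactory ensheathing cells were at 0. A doublet score marked 16 of the 71 OPCs and 1777 of all 16348 passing cells, a total set by an assumed doublet rate. The marked OPCs were kept. The part of doublets and of other cell types in the results was not tested beyond the fits without the doublets or without the 11 OPCs.

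**Figure D1:**
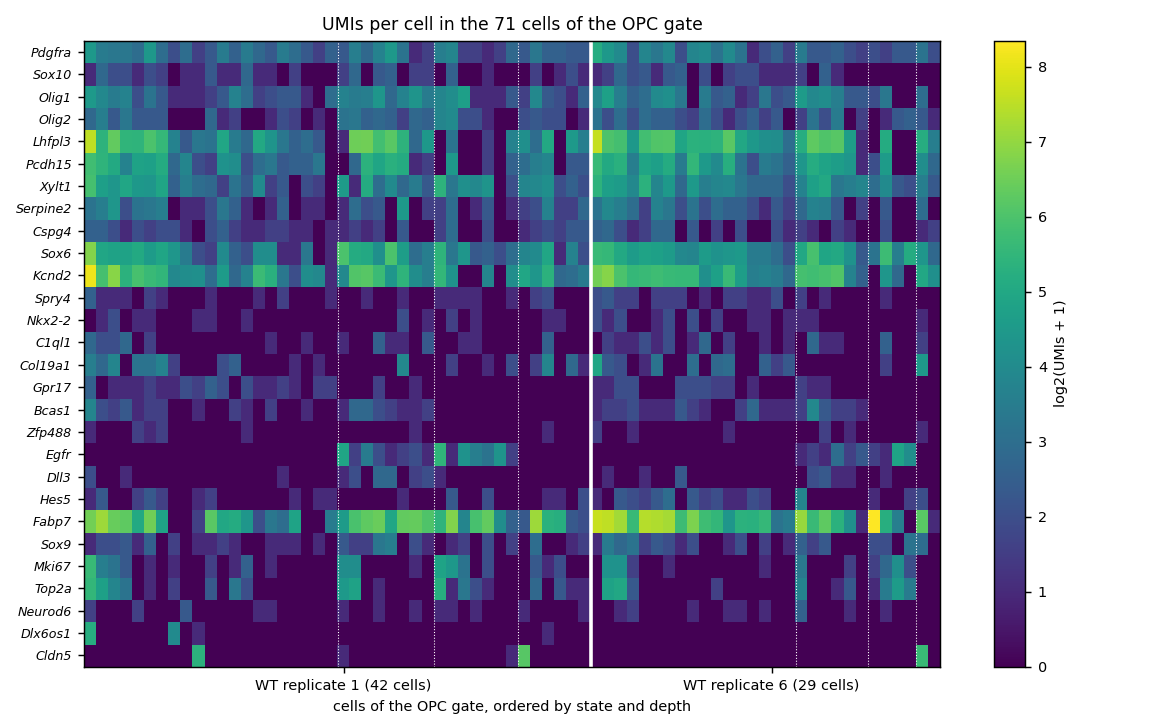
UMIs per cell, as log2(UMIs + 1), for 28 genes (rows) in the 71 OPCs (columns), 42 of replicate 1 on the left of the solid line and 29 of replicate 6 on the right. Dotted lines separate cells by the state genes Gpr17, Bcas1 and Egfr; Pdgfra, the Olig genes, Lhfpl3, Kcnd2 and Sox6 fill most columns, while neuronal and endothelial genes appear in few.

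For comparison, the summed UMIs of the OPCs of each library were set against 3 other classes. Radial glia were cells with Sox9 and no Pdgfra, 1001 and 997 cells in replicates 1 and 6. Radial glia are the neural stem cells of the developing cortex, and this class was mixed: at least 5 UMIs of radial glial markers were present in 54.4% and 55.8% of its cells, at least 5 of excitatory neuron markers in 25.9% and 28.9%, and at least 5 of interneuron markers in 31.6% and 30.6%. Olig-only cells, 69 and 73, held at least 2 Olig1 or Olig2 UMIs but no Pdgfra, Sox10, Col1a2 or Eomes. They were mixed too: at least 5 UMIs of radial glial markers were present in 72.5% and 76.7%. At least 5 of interneuron markers were present in 27.5% and 23.3%, and at least 5 of intermediate progenitor markers in 27.5% and 28.8%. All other passing cells, which were every passing cell that was not an OPC, numbered 8097 and 8180. The 3 reference classes overlapped and are not independent. Radial glia and Olig-only cells were both part of all other cells. The 46.4% and 50.7% of Olig-only cells that held Sox9 were also radial glia.

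Against radial glia, edgeR called 1421 of 14246 tested genes at an adjusted p under 0.05 (9.97%), 734 higher in OPCs (5.15%) and 687 lower (4.82%). Against all other cells, 2910 of 17814 genes were called (16.3%), 1286 higher (7.22%) and 1624 lower (9.12%). This split depended on the scaling: 44.2% of the calls were higher with the scaling used, 54.1% with none and 55.3% with DESeq2. The scaling moved the median gene of that comparison by -0.12 on the log2 scale. Against Olig-only cells, 746 of 8957 genes were called (8.33%), 500 higher (5.58%) and 246 lower (2.75%). All fold changes below are log2 differences with their standard errors. Levels are CPM of the summed cells, given for replicate 1 and then replicate 6. A low-count gene can pass the expression filter through the class in which it is high, so counts over tested genes are descriptions of those genes and not of whole lists. List counts against all other cells or Olig-only cells are to be read beside the shares of that comparison given here.

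Several genes outside the gate that encode membrane, matrix or secreted proteins were much higher in OPCs than in radial glia. Lhfpl3, a four-pass membrane protein, stood at 2404 and 3818 CPM in OPCs and at 20.1 and 19.0 in radial glia. It was detected in 62 of the 71 OPCs, and its levels in the classes did not come near each other (7.32 ± 0.27, adjusted p = 1.3e-06). Cspg4, which encodes the NG2 proteoglycan, stood at 174 and 173 against 3.36 and 3.07 (5.76 ± 0.20, adjusted p = 1.3e-06) and was found in 52 OPCs. Gpr17, a receptor of OPCs that are committing to differentiate, gave 66 UMIs in 33 OPCs and 1 UMI in all radial glia, a ratio of 1819 with a counting interval of 315 to 72918. Pcdh15, a protocadherin, stood at 1141 and 1784 against 88.3 and 80.6 (4.12 ± 0.23). Serpine2, a secreted protease inhibitor, stood at 375 and 480 against 10.1 and 14.1 (5.15 ± 0.19). In each of these genes the OPC level of both libraries exceeded the radial glial level of both.

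Of the 30 genes of the OPC identity list, 27 were tested against radial glia, and 23 were higher in OPCs and none lower, where 5.15% of all tested genes were higher. Their median difference was 3.17, against -0.06 over all tested genes. Nkx2-2, a homeodomain factor of the lineage, stood at 37.7 and 70.5 against 0.82 and 0.93 (5.87 ± 0.47, adjusted p = 7.3e-05). C1ql1, a secreted C1q-domain protein, stood at 85.8 and 119 against 2.90 and 3.16 (5.05 ± 0.29). Sox8, a relative of SOX10, was higher by 1.62 (adjusted p = 0.01). Vcan (0.40, adjusted p = 0.12), Ncan (0.19, adjusted p = 0.49), Gpr37l1 and Tmem100 did not pass the test. Leaving out the OPC sum of replicate 1 gave 25 higher genes and leaving out that of replicate 6 gave 23.

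The identity genes were also set against the other 2 references. Against all other cells, 24 of 28 tested genes were higher and none lower, with a median of 3.66 against -0.21 over all genes. Serpine2 differed there by 5.11 ± 0.15 and Nkx2-2 by 7.29 ± 0.46. Against Olig-only cells, 19 of 24 were higher and none lower, with a median of 2.34. Lhfpl3 stood at 55.5 and 28.8 CPM in Olig-only cells, so that OPCs were higher by 6.29 ± 0.36 (adjusted p = 1.1e-05). Cspg4 stood at 7.93 and 1.07 there (5.33 ± 0.43). Gpr17 was at 0 in the Olig-only cells of both libraries and was at least 50.7-fold higher in OPCs, taking 3 UMIs over the group as the floor. Olig1 and Olig2 themselves stood at 185 and 228, and at 168 and 192, CPM in Olig-only cells.

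Among genes with at least 10 UMIs in each OPC sum, the 10 with the largest differences from radial glia were Gpr17, Col19a1, Lhfpl3, Bcas1, Pstpip2, Tmem132d, Prkcq, Gm42948, Plpp4 and Atp10b. Col19a1, a fibril-associated collagen, stood at 234 and 320 CPM against 1.91 and 1.12 (7.48 ± 0.25, adjusted p = 1.1e-06) and was found in 32 OPCs. Bcas1, which marks oligodendrocytes in early differentiation, stood at 117 and 173 against 0.91 and 1.49 (6.88 ± 0.33). Tmem132d, a transmembrane protein, stood at 270 and 336 against 4.36 and 2.98 (6.35 ± 0.21). Col19a1 was nearly absent from Olig-only cells too, at a ratio of 244 with a counting interval of 66.8 to 2030. These 10 genes were spread over many OPCs rather than set by a single cell, and 4 of them had a promoter window, none with the SOX letters.

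**Figure D2:**
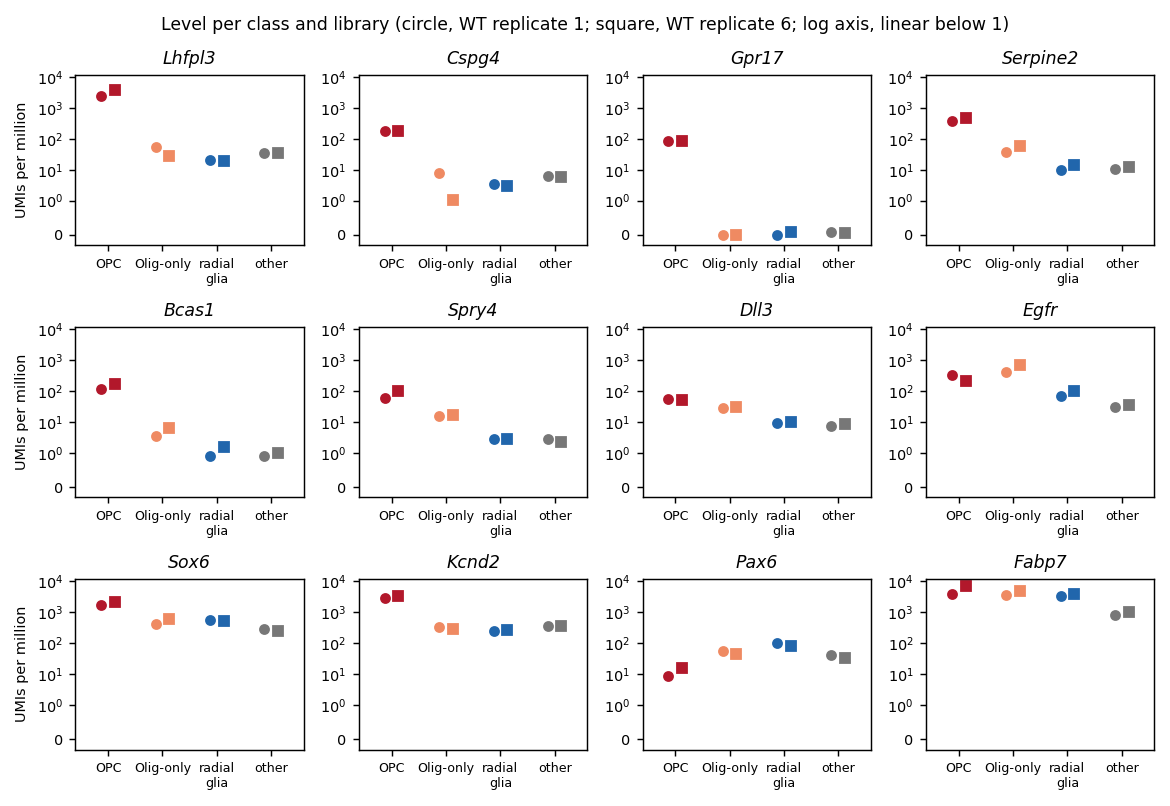
Summed CPM (log axis, linear below 1) of 12 genes in OPCs, Olig-only cells, radial glia and all other cells, with a circle for replicate 1 and a square for replicate 6. Lhfpl3, Cspg4, Gpr17, Serpine2 and Bcas1 are highest in OPCs, Egfr is highest in Olig-only cells, and Pax6 is lowest in OPCs.

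Detection of these genes was compared after each cell was thinned to 2000 UMIs, with cells below that left out (1 OPC in each library). Lhfpl3 was detected in 80.5% and 89.3% of thinned OPCs, against 85.7% and 89.7% before thinning. It was detected in 8.82% and 5.56% of Olig-only cells, and in 3.37% and 1.84% of radial glia. Red blood cells (cells with at least 50 hemoglobin UMIs), which should lack it, gave 0.463% and 2.37%, at median depths of 3439 and 4191.5 UMIs. Cspg4 was detected in 26.8% and 32.1% of thinned OPCs, from 78.6% and 65.5% before thinning, and in 0 and 0.339% of red blood cells. Gpr17 was detected in 19.5% and 10.7%, from 47.6% and 44.8%, and in no red blood cell. In red blood cells Cspg4 and Gpr17 were thus near 0. The Lhfpl3 share of red blood cells in replicate 6, 2.37%, was above the 1.84% of radial glia. The drop with thinning shows that OPCs without Gpr17 in the full data cannot all be read as negative.

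Chondroitin sulfate proteoglycans and their matrix partners form a coat on OPCs. Of 26 tested genes of this list (27 in all), 9 were higher in OPCs than in radial glia and 1, Tnc, was lower. The shares over all tested genes were 5.15% and 4.82%, and the list median was 0.73. Xylt1, which starts the glycosaminoglycan chain, stood at 1110 and 1348 against 102 and 108 (3.56 ± 0.17, adjusted p = 5.6e-06). Tnr, a tenascin that binds these proteoglycans, stood at 415 and 365 against 55.8 and 59.6 (2.78 ± 0.14). Bcan, the core protein brevican, stood at 140 and 250 against 20.3 and 21.5 (3.17 ± 0.23). Chst11, a chondroitin sulfotransferase, stood at 337 and 375 against 61.4 and 64.2 (2.51 ± 0.13). The enzymes Chsy1, Chsy3, Chpf and Csgalnact1, which extend the chain, did not pass the test. Of the Tnc UMIs in OPCs, 54% came from a single cell. Against Olig-only cells, 8 of 18 tested genes were higher and none lower, and against all other cells 10 of 26 and none.

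PDGF receptor signalling runs through the ERK pathway, which is known to induce its own feedback inhibitors and ETS-domain factors. Of 22 tested genes of the PDGF and FGF list (23 in all), 9 were higher in OPCs than in radial glia and 3 lower. Over all tested genes 5.15% were higher and 4.82% lower, and the list median was 0.45. The feedback inhibitor Spry4 stood at 58.6 and 99.3 CPM against 2.81 and 2.79 (4.77 ± 0.35, adjusted p = 5e-05). Spry1 stood at 50.3 and 99.3 against 3.36 and 1.77 (4.80 ± 0.46). Dusp6, an ERK phosphatase, stood at 31.4 and 51.2 against 5.54 and 5.58 (2.85 ± 0.36, adjusted p = 0.0011). Among the ETS factors, Etv4 was higher by 2.57 ± 0.40, Etv5 by 1.35 ± 0.21 and Etv1 by 0.59. Transcripts of these inhibitors, the phosphatase and the ETS factors were all higher in OPCs of both libraries. ERK activity was not measured, and the cause of these levels was not tested.

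Of the 3 lower genes, 2 were receptors. Fgfr1 was lower by 0.86 on the log2 scale in OPCs (-0.86 ± 0.21, adjusted p = 0.031) and Fgfr2 by 0.88 (-0.88 ± 0.19, adjusted p = 0.017). Fgfr3 (-0.73, adjusted p = 0.27) did not pass the test. The call for Fgfr1 was lost without the OPC sum of replicate 1 (-0.63, adjusted p = 0.22). The ligands Pdgfa, Pdgfb and Pdgfc had 4, 4 and 11 UMIs in all OPCs and did not pass the test, whereas Pdgfd was higher by 2.06 (adjusted p = 0.012) in 7 OPCs. Against Olig-only cells, 3 of 16 tested genes were higher, namely Spry1 (2.70 ± 0.49), Spry4 (2.29 ± 0.36) and Dusp6 (2.43 ± 0.45), and 1 was lower. Without the OPC sum of replicate 6, the Dusp6 call was lost (2.10, adjusted p = 0.07), with the replicate block 5 genes were higher and 2 lower, and without the OPC sum of replicate 1 5 were higher. Etv4 (1.19, adjusted p = 0.14) and Etv5 (0.61, adjusted p = 0.28) did not pass that test.

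Genes of OPC commitment are those active while multipotent progenitors turn to the lineage. Against radial glia, 7 of 17 tested genes of this list (18 in all) were higher in OPCs and 2 lower. The shares over all tested genes were 5.15% and 4.82%. The list median was 0.38, and 4 genes were higher when OPCs had to hold both Pdgfra and Sox10. Egfr, the EGF receptor of glial progenitors, stood at 320 and 205 CPM against 70.6 and 96.8 (1.70 ± 0.23, adjusted p = 0.0013). This call was lost when Pdgfra and Sox10 were both required, which left 46 OPCs (0.35, adjusted p = 0.60). The Notch ligands Dll1 (2.18 ± 0.27) and Dll3 (2.54 ± 0.28) were higher, as were Zeb1 (1.38 ± 0.15) and the chromatin remodeller Chd7 (1.09 ± 0.14).

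Olig-only cells held more of some of these transcripts. No gene of 15 tested was higher in OPCs than in Olig-only cells and 3 were lower, with a median of -0.63. With both Pdgfra and Sox10 required of OPCs, 1 was higher and 8 were lower, with a median of -1.17. Egfr stood at 409 and 699 CPM in Olig-only cells, above both OPC levels, and the difference missed the threshold (-0.96 ± 0.29, adjusted p = 0.071). Hes6, a Notch pathway inhibitor, was lower in OPCs by 1.20 on the log2 scale (-1.20 ± 0.21, adjusted p = 0.0055). Prdm16, a chromatin regulator of radial glia, was lower against Olig-only cells (-2.89 ± 0.31) and against radial glia, where it stood at 14.7 and 28.8 in OPCs and at 212 and 219 in radial glia (-3.38 ± 0.24, adjusted p = 4.5e-05). Mycn, the third gene, was lower by 1.61, a call lost without the OPC sum of replicate 1 (-1.54, adjusted p = 0.094).

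**Figure D3:**
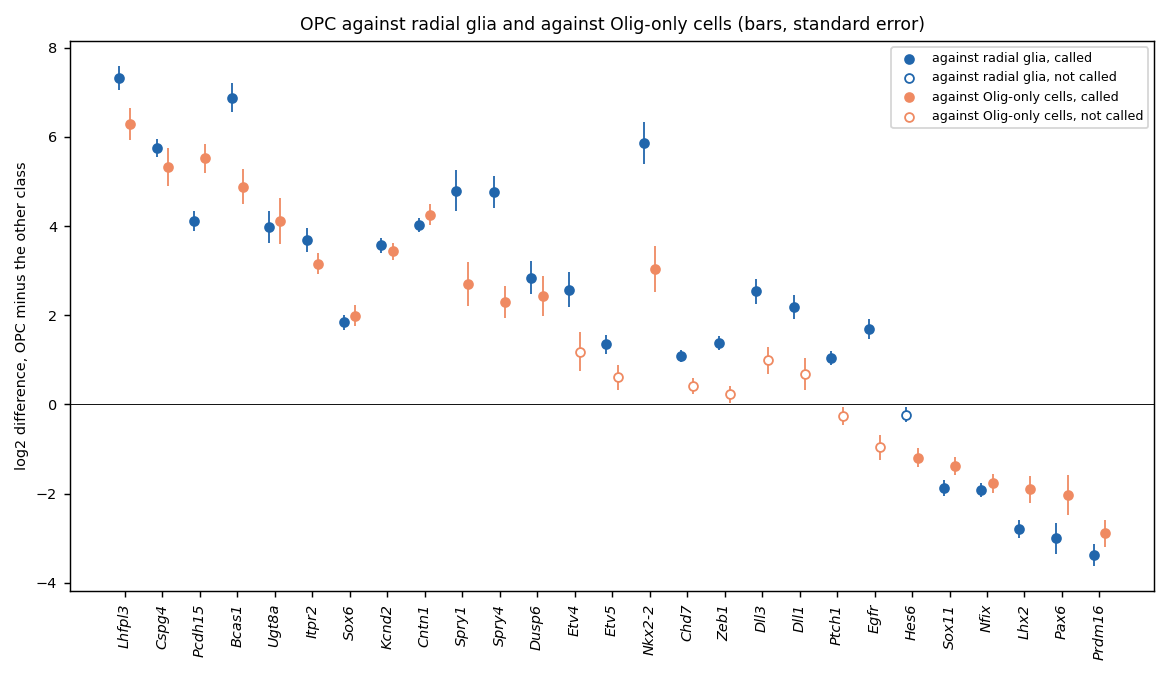
Log2 difference ± SE of OPCs against radial glia (blue) and against Olig-only cells (orange) for 27 genes, with filled points for called genes and open points for genes not called. OPC genes such as Lhfpl3 and Cspg4 lie above 0 in both comparisons, Egfr lies above 0 against radial glia and below 0 against Olig-only cells, and Prdm16 lies below 0 in both.

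Genes of differentiating oligodendrocytes were called in both directions. Against radial glia, 7 of 16 tested genes of this list (25 in all) were higher in OPCs and 2 lower. The shares over all tested genes were 5.15% and 4.82%, and the list median was 0.70. The median was 0.14 and 0.12 without the OPC sum of replicate 1 or 6, when 5 and 6 genes were higher. Bcas1 is given above. Ugt8a, which makes the myelin lipid galactosylceramide, stood at 44.0 and 73.7 CPM against 3.45 and 3.72 (3.99 ± 0.36, adjusted p = 0.00016). Itpr2, an intracellular calcium channel, stood at 218 and 205 against 21.1 and 12.3 (3.68 ± 0.27) and was found in 55 OPCs. Zfp488, a transcriptional regulator of oligodendrocyte differentiation, was found in 13 OPCs and stood at 18.8 and 25.6 against 0.27 and 0.28 (adjusted p = 0.00024). It was at 0 in Olig-only cells, at least 13.1-fold lower than in OPCs. Cnp, an enzyme of myelin, was higher by 2.62 ± 0.27.

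Structural myelin genes were at low levels. Mbp stood at 12.6 and 28.8 CPM in OPCs and 9.44 and 10.4 in radial glia (0.96, adjusted p = 0.24), and did not pass the test. Mag, Mobp, Mal, Opalin, Aspa, Enpp6, Fa2h, Nkx6-2 and Myrf were not tested against radial glia because of their low counts. Myrf, the factor that drives myelination, gave 4 UMIs in 4 OPCs and was higher than in all other cells (4.44 ± 1.13, adjusted p = 0.02). Zfp536, a repressor of differentiation, was lower in OPCs by 1.27 on the log2 scale (-1.27 ± 0.17). Against Olig-only cells, 5 of 10 tested genes of the list were higher and 1 lower.

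Radial glial genes were mixed in OPCs. Of 24 tested genes of this list (25 in all), 3 were higher in OPCs than in radial glia and 8 lower. Over all tested genes 5.15% were higher and 4.82% lower, and the list median was -0.13. Fabp7, a lipid-binding protein of radial glia, stood at 3813 and 7174 CPM in OPCs against 3252 and 3864 (0.64, adjusted p = 0.18). Vim and Slc1a3, a filament protein and a glutamate transporter, did not pass the test either (-0.09 and -0.28). Ednrb, the endothelin receptor B, was higher at 339 and 323 against 97.2 and 82.4 (1.90 ± 0.15). Hopx, Aldoc and Id4 were lower by 2.20, 2.55 and 3.20. The number of higher genes was 7 without the OPC sum of replicate 1 and 2 without that of replicate 6, and with the replicate block it was 5. Against all other cells, 15 of 24 tested genes of the list were higher and 4 lower, with a median of 1.10.

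Astrocyte genes were called in both directions. Against radial glia, 2 of 16 tested (18 in all) were higher and 3 lower, beside 5.15% and 4.82% of all tested genes. The list median was -0.57, or -0.38 with genes at 0 UMIs set to their bounds. Without the OPC sum of replicate 1, 4 were higher. S100b, a calcium-binding protein of glia, was higher at 33.5 and 28.8 against 4.08 and 4.19 (2.94 ± 0.38), and Luzp2, shared with the identity list, by 0.89. Apoe, a lipid carrier of astrocytes, was lower at 79.6 and 119 against 402 and 326 (-1.90 ± 0.22, adjusted p = 0.00055). Clu was 16.7-fold lower, with a counting interval of 4.61 to 138. Against Olig-only cells, 2 of 14 were higher and 5 lower, Apoe among them (-2.35 ± 0.24).

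Patterning genes of the cortical ventricular zone were low in OPCs. Of 11 tested genes of the dorsal telencephalic list (12 in all), none was higher and 8 were lower than in radial glia, where 4.82% of all tested genes were lower, with a median of -3.37, or -2.79 at the bounds. Pax6, a determinant of cortical radial glia, stood at 8.38 and 16.01 CPM against 101 and 84.3 (-3.01 ± 0.34, adjusted p = 0.00057). Lhx2, a selector gene of the cortex, stood at 25.1 and 22.4 against 160 and 178 (-2.79 ± 0.21). Emx1, the cortical gene whose promoter drives the Cre of this mouse cross, gave 1 UMI in OPCs, 25.7-fold lower with a counting interval of 4.60 to 1018. Fezf2 gave none and was at least 7.39-fold lower. Against Olig-only cells, 4 of 5 tested genes were lower, and against all other cells 8 of 12, or 5 without the OPC sum of replicate 1.

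Of 17 tested ventral patterning genes (18 in all), 1 was higher and 8 were lower than in radial glia. The shares over all tested genes were 5.15% and 4.82%, and the list median was -1.59. Without the expression filter, none of 18 was called. Dlx2 was lower by 1.59, Sp9 by 2.20, and the GABA-synthesis genes Gad1 and Gad2 by 1.83 and 1.77. These counts changed with the reference: when radial glia also had to hold Slc1a3 and Pax6, 1 of 16 genes was lower and 2 were higher. Under that reference the dorsal genes stayed at 8 lower of 9 tested. Nkx2-1, a factor of the medial ganglionic eminence, gave 7 UMIs in OPCs and did not pass the test (-0.35, adjusted p = 0.82). The reference class held 658 and 600 CPM of interneuron markers, and their part in the ventral counts was not tested further.

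Neuronal genes were low. Of 22 tested genes of the neuron list, none was higher and 16 were lower than in radial glia. Over all tested genes 4.82% were lower, and the list median was -1.38. Tubb3, a neuronal tubulin, stood at 134 and 119 against 518 and 560 (-2.07 ± 0.17), and Dcx, a marker of migrating neurons, at 115 and 112 against 317 and 334 (-1.50 ± 0.16). With Slc1a3 and Pax6 required of radial glia, 9 were lower and 1 higher. Against all other cells, 18 of 22 were lower, with a median of -2.12. Neurod6, a factor of excitatory neurons, was lower there by 3.48. Against Olig-only cells, 6 of 17 were lower.

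**Figure D4:**
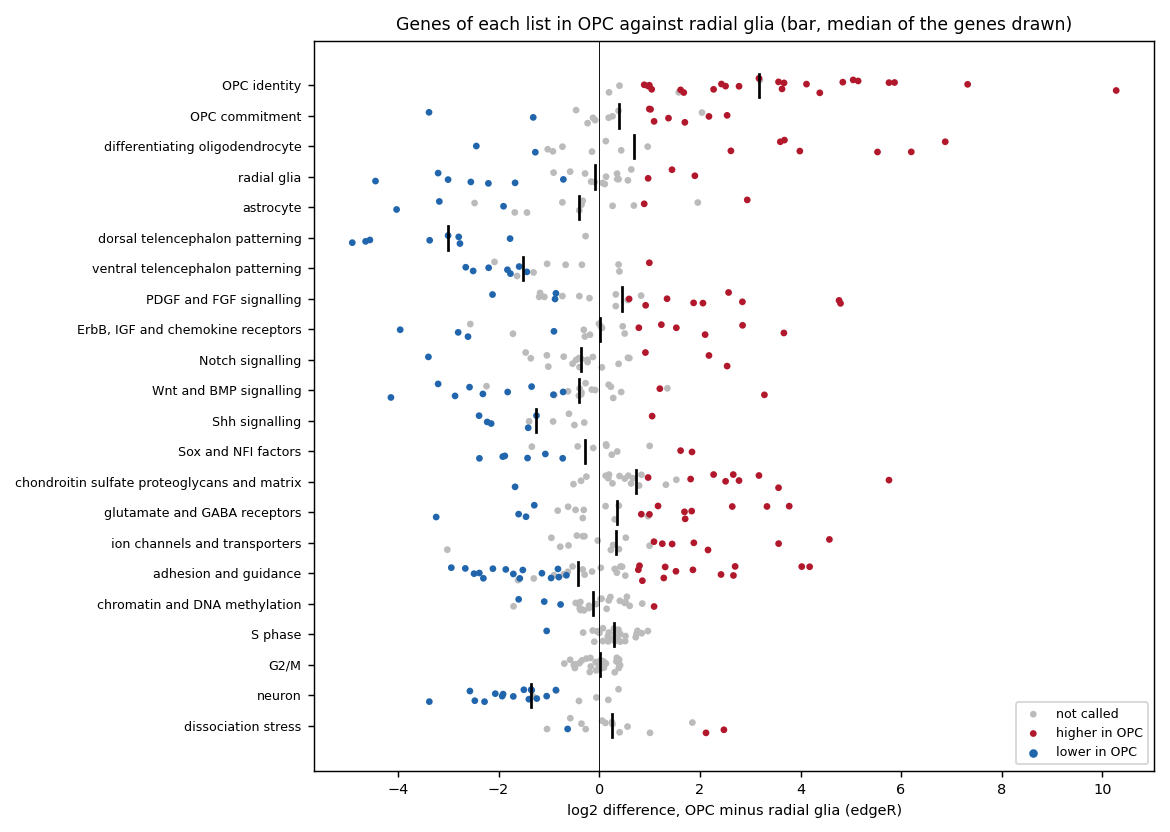
Log2 difference of OPCs from radial glia for each tested gene of 22 lists (points; red, called higher; blue, called lower; grey, not called), with a bar at the median of the genes drawn; genes at 0 UMIs in a class are not drawn. The OPC identity list lies furthest to the right, and the dorsal patterning list furthest to the left.

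Of 22 tested Notch genes, 4 were called against radial glia, where 9.97% of all tested genes were called. Of these, 3 were higher in OPCs, the ligands Dll1 and Dll3 and the ligand-like gene Dner (0.92), and 1, Notch2, was lower, and the median of the list was -0.37. Notch2 stood at 10.5 and 12.8 CPM against 124 and 119 (-3.40 ± 0.25, adjusted p = 5.5e-05). Notch1 (-0.13) and the targets Hes1 (0.38) and Hes5 (0.57) did not pass the test. Hes5 stood at 67.0 and 179 in OPCs, on both sides of 82.6 and 72.6 in radial glia. Against Olig-only cells, none of 17 was higher and 3 were lower.

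Of 11 tested sonic hedgehog genes (12 in all), 1 was higher in OPCs than in radial glia and 5 lower. The shares over all tested genes were 5.15% and 4.82%, and the list median was -1.25. Ptch1, both the receptor and a target of the pathway, stood at 113 and 128 against 59.9 and 56.6 (1.05 ± 0.16, adjusted p = 0.0025). The transcription factors Gli2 and Gli3 were lower (-2.15 ± 0.27 and -2.23 ± 0.17), as were the co-receptors Boc, Cdon and Gas1 (-2.39, -1.41 and -1.25). Gli1, another target, gave 1 UMI in OPCs. Against Olig-only cells none of 8 was higher and 3 were lower, and Ptch1 did not pass the test (-0.27, adjusted p = 0.56).

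Of 26 tested Wnt and BMP genes (28 in all), 2 were higher and 9 lower than in radial glia, and 15 did not pass the test. Over all tested genes 5.15% were higher and 4.82% lower, and the list median was -0.40. Bmp7, a secreted BMP, was higher at 44.0 and 60.9 against 6.08 and 4.47 (3.28 ± 0.36). Apcdd1, a Wnt inhibitor, was also called higher (1.20), but 53% of its UMIs came from a single OPC, and without OPCs that held markers of other cell types it was lower (-2.31). The secreted Wnt inhibitor Sfrp1 was lower by 1.82. Id2 and Id4, targets of BMP signalling, were lower by 1.35 and 3.20.

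ErbB, IGF and chemokine receptor genes changed in both directions against radial glia, at 6 higher and 4 lower of 20 tested. The shares over all tested genes were 5.15% and 4.82%, and the list median was 0.01. Erbb4, a neuregulin receptor, stood at 1773 and 1950 against 807 and 790 (1.23 ± 0.15, adjusted p = 0.00074). The ligand Nrg1 was lower at 718 and 583 against 3754 and 4301 (-2.61 ± 0.18), with 32% of its OPC UMIs in a single cell. Erbb3, the neuregulin receptor of myelinating glia, was called higher on 7 UMIs (3.67 ± 0.78, adjusted p = 0.017), and the call was lost without the OPC sum of replicate 6 (3.17, adjusted p = 0.16). Igf1r, the IGF receptor, did not pass the test (0.03). Without OPCs that held markers of other cell types, 3 genes of the list were higher.

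Among Sox and NFI factors, 2 of 16 were higher in OPCs than in radial glia and 6 lower. Over all tested genes 5.15% were higher and 4.82% lower, and the list median was -0.27. Sox6, which holds OPCs in the precursor state, stood at 1665 and 2155 CPM against 554 and 518 (1.84 ± 0.17, adjusted p = 0.00018) and was found in 70 of the 71 OPCs. It was also higher than in Olig-only cells (1.99 ± 0.23) and than in all other cells (2.72). Its partner Sox5 did not pass the test (0.25). Sox11, a factor of immature neurons, was lower (-1.88 ± 0.18), as were the glial factors Nfib (-1.07 ± 0.15) and Nfix (-1.92 ± 0.17). Nfia, which promotes gliogenesis, did not pass the test (-0.43, adjusted p = 0.14).

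Of 20 tested ion channel and transporter genes (22 in all), 7 were higher in OPCs than in radial glia, none was lower and 13 did not pass the test. Over all tested genes 5.15% were higher, and the list median was 0.33. Kcnd2, a potassium channel of the A type, stood at 2871 and 3344 CPM against 255 and 274 (3.56 ± 0.17, adjusted p = 5.6e-06) and was found in 66 OPCs. Kcnip3, which binds such channels, was higher by 1.88 ± 0.20. Slc1a1, a glutamate transporter, was higher by 2.16 ± 0.26, and Cacng4, an auxiliary subunit of AMPA receptors, by 1.45 ± 0.17. The inward rectifier Kcnj10 of mature glia did not pass the test (0.39). Against Olig-only cells, 8 of 16 were higher and 1 lower, and 3 were higher without the OPC sum of replicate 6.

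Receptors for glutamate and GABA split by gene. Of 22 tested, 9 were higher in OPCs than in radial glia and 4 lower, beside 5.15% and 4.82% of all tested genes. The list median was 0.35. Grin3a, an NMDA receptor subunit, stood at 121 and 208 against 20.2 and 11.4 (3.33 ± 0.35, adjusted p = 0.00036). Gabrg1, a GABA-A receptor subunit, stood at 37.7 and 83.3 against 4.27 and 4.09 (3.78 ± 0.41). The kainate receptor subunit Grik4 was higher by 2.64 ± 0.19 and the AMPA receptor subunit Gria3 by 1.84 ± 0.16. Gabrb1 was lower at 16.8 and 12.8 against 148 and 143 (-3.24 ± 0.23), and Gria1 and Grin2b were lower by 1.60 and 1.29. The call for Gria1 was lost when radial glia had to hold Slc1a3 and Pax6 (-0.76). Against Olig-only cells, 7 of 21 were higher and none lower.

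Adhesion and guidance genes changed in both directions. Of 42 tested (43 in all), 12 were higher in OPCs than in radial glia and 15 lower, beside 5.15% and 4.82% of all tested genes. The list median was -0.43. Cntn1, an adhesion molecule of oligodendrocytes and axons, stood at 559 and 653 CPM against 40.3 and 34.5 (4.02 ± 0.16, adjusted p = 2.3e-06). Sema3d, a secreted semaphorin, was higher by 4.18 ± 0.35, Dscam by 2.67 ± 0.21 and Ncam2 by 2.42 ± 0.16. The semaphorin receptor Plxna4 was lower (-2.94 ± 0.30), as were the Slit receptor Robo2 (-2.66 ± 0.19) and the Eph receptors Epha3 and Epha7 (-2.12 and -2.49). Against Olig-only cells, 12 of 39 were higher, Cntn1 (4.26 ± 0.23) and the netrin receptor Unc5c (2.71 ± 0.32) among them, and 5 lower, or 8 without the OPC sum of replicate 1.

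Of 26 tested chromatin and DNA methylation genes, 4 were called, beside 9.97% of all tested genes: 1 was higher in OPCs than in radial glia, Chd7, and 3 were lower, with a median of -0.13. Dot1l, the histone H3 lysine methyltransferase that the mouse cross targets, stood at 37.7 and 25.6 CPM in OPCs, 39.9 and 36.6 in radial glia, and 38.5 and 38.4 in Olig-only cells. It passed no test against radial glia (-0.20 ± 0.26, adjusted p = 0.73), Olig-only cells (-0.14, adjusted p = 0.88) or all other cells (-0.40, adjusted p = 0.36), on 26 UMIs in 21 OPCs. The DNA methyltransferase Dnmt1 did not pass the test against radial glia (0.41, adjusted p = 0.17). Mllt3, Tet3 and Hdac2 were lower by 1.60, 1.09 and 0.77. Against Olig-only cells, none of 23 genes was called.

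Cell cycle transcripts were higher in OPCs than in all other cells. Of the 29 genes of the G2/M list, 28 were higher and none lower, with a median of 1.23, where 7.22% of all tested genes were higher. Top2a stood at 469 and 400 CPM against 178 and 151 (1.29 ± 0.15), and Mki67, a proliferation marker, at 383 and 253 against 94.7 and 87.9 (1.71 ± 0.18). The number of higher genes was 11 without doublets. S phase genes were higher for 17 of 29. Against radial glia, no G2/M gene was called by edgeR (median 0.02), but 4 were lower with the replicate block, 4 with Slc1a3 and Pax6 required of radial glia, and 9 without doublets. Top2a stood at 470 and 399 in radial glia (0.02, adjusted p = 0.96). Against Olig-only cells, 6 of 29 were lower (median -0.55), among them Cenpf (-0.99), Ube2c (-1.10) and Prc1 (-1.14). With the replicate block, 9 were lower. Without doublets, 18 were lower, and without the OPC sum of replicate 1, 2 were lower.

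The share of OPCs with a G2/M transcript was also counted after thinning to 2000 UMIs. It was 73.2% in replicate 1 (30 of 41, 95% Wilson interval 58.1 to 84.3%) and 39.3% in replicate 6 (11 of 28, 23.6 to 57.6%), a mean of 56.2% ± 23.96 (SD, n = 2). At this depth the intervals of the 2 libraries did not overlap for OPCs, while radial glia gave 53.8% in each. After thinning to 4000 UMIs the OPC intervals did overlap, at 66.5 to 91.7% and 44.5 to 79.8%. All these intervals cover counting error only. Olig-only cells gave 70.6% and 77.8%, all other cells 35.3% and 33.6%, and red blood cells 44.9% and 40.3%. The interval of the OPCs of replicate 6 held the values of both of the latter. Transcripts of the red blood cells themselves were not separated here from free RNA. Before thinning, the OPC shares were 88.1% and 65.5%, with overlapping intervals of 75.0 to 94.8% and 47.3 to 80.1%.

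**Figure D5:**
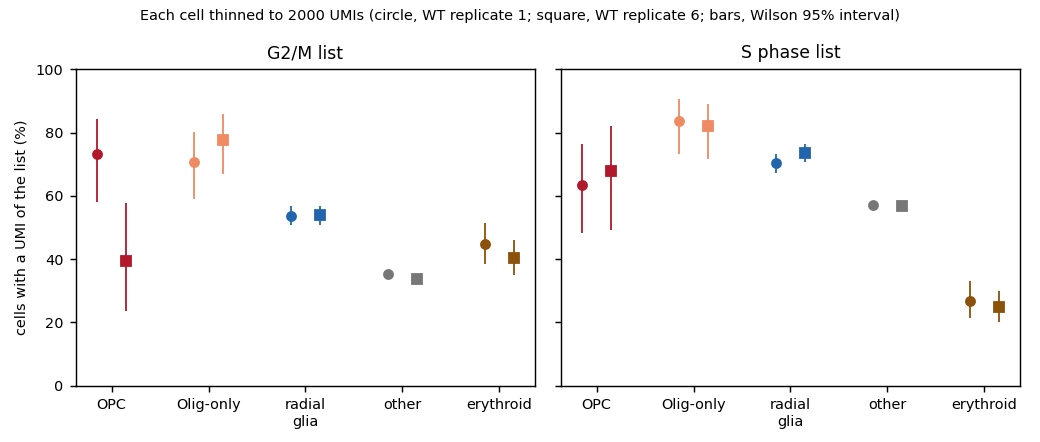
Percent of cells with at least 1 UMI of the G2/M list and of the S phase list after thinning to 2000 UMIs, for 5 cell classes in each library, with 95% Wilson intervals as bars. In the G2/M panel the OPCs of replicate 1 reach 73.2% and those of replicate 6 39.3%, while radial glia lie at 53.8% in both.

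Within the class, OPCs differed in the genes of commitment and of differentiation. Gpr17 or Bcas1 without Egfr was found in 38 OPCs (21 in replicate 1 and 17 in replicate 6), either of them with Egfr in 14 (8 and 6), Egfr without them in 11 (7 and 4), and none of the 3 genes in 8 (6 and 2). All 4 states were thus present in both libraries. Gpr17 was detected in 33 OPCs, Bcas1 in 41 and Egfr in 25. Egfr was detected in 5 of the 33 OPCs with Gpr17 and in 20 of the 38 without it. As each state was set by detection, its depth matters: median UMIs per cell were 8200, 13661.5, 11891 and 7206 in the 4 states. Of the 26 OPCs below 8000 UMIs, 13 held Gpr17 and 3 held Egfr. Of the 45 deeper OPCs, 20 held Gpr17 and 22 held Egfr.

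Other genes varied with these states. Sox10 was detected in 31 of the 38 OPCs with Gpr17 or Bcas1 only, in 9 of the 14 that also held Egfr, and in 2 of the 11 with Egfr only. Lhfpl3 stood at 3830, 3462 and 393 CPM in the same order, and Kcnd2 at 4070, 2899 and 828. Values of Sox10, Lhfpl3 and Kcnd2 were thus lowest in the cells with Egfr only. At least 5 G2/M UMIs were found in 14 of 38, 6 of 14 and 9 of 11. Dll3 was detected in 6 of 38, 10 of 14 and 2 of 11. Sox6 stood at 1917, 2251 and 1369 CPM and was detected in 37, 14 and 11 OPCs. Fabp7 stood at 5737, 4354 and 4907, with 3480 and 8641 in replicates 1 and 6 of the first state. In the 8 OPCs with none of the 3 state genes, Sox10 was detected in 4, Lhfpl3 stood at 1988 CPM and Kcnd2 at 2353. At least 5 G2/M UMIs were found in 2 of these 8, and Dll3 in 0. Sox6 stood at 1462 CPM and Fabp7 at 4400 there. These counts describe cells of 2 libraries and were not tested.

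The same cells can be split by Sox10, itself a gate gene, which restates part of the counts above. Of the 46 OPCs with Sox10, 26 held Gpr17, 34 Bcas1, 11 Egfr and 45 Lhfpl3. Of the 25 without Sox10, 7 held Gpr17, 7 Bcas1, 14 Egfr and 17 Lhfpl3. Their median depths were 10913 and 10389 UMIs. Egfr stood at 106 CPM in the OPCs with Sox10 and at 635 in those without.

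Genes associated with tissue dissociation were mostly not called. Of 18 tested (19 in all), 2 were higher in OPCs than in radial glia, Egr1 (2.12) and Nr4a1 (2.48), and 1, Jund, was lower (-0.63). Over all tested genes 5.15% were higher and 4.82% lower, and the list median was 0.09. Egr1 lost its call without the OPC sum of replicate 1 (1.89, adjusted p = 0.055) and Nr4a1 without that of replicate 6 (2.19, adjusted p = 0.078). Both are immediate early genes that ERK signalling also induces. The relation of Egr1 and Nr4a1 to the Spry, Dusp6 and Etv values above was not tested.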

How the data were processed

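The authors deposited UMI counts per gene and cell for each library. The submitters' processing notes name Cell Ranger 7.0.0 and mm10, with other settings not given in the sources used here. The files held 14136 and 13046 cells with 74930397 and 68964234 UMIs, and 8139 and 8209 cells passed the filters (median 6924 and 6664 UMIs). Doublets were scored with Scrublet in scanpy 1.11.5 and kept. Raw counts were summed per class and library and tested with edgeR 4.0.16 (R 4.3.3; filterByExpr, TMM scaling, quasi-likelihood test, Benjamini-Hochberg adjustment over all tested genes). DESeq2 1.42.0 was an alternative. On simulated counts for the radial glia comparison (14257 genes), edgeR recovered 80% of 2-fold increases and 60% of 2-fold decreases, with 4 false calls. For Olig-only cells (8802 genes) it recovered 42.5% and 30%, with 12 false calls.

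Sums with the same replicate number came from the same library, which pairs them. Their deviations correlated at 0.114, 0.112 and 0.130 in the 3 comparisons. The replicate block was an alternative fit.

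The members and gene lists were chosen with earlier results of these data known. Genes were named by rule: the gate genes, Dot1l, up to 4 called genes per list and direction that changed the same way in both libraries, and the 10 most changed genes per direction with at least 10 UMIs in each sum of the higher class, mitochondrial genes excluded. Others are given as values, and some genes of the lists are not reported here.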

Additional observations from a re-analysis of the deposited data

How the results depend on the processing

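The fit with the replicate block, which pairs the classes of a library, called 1781 genes against radial glia, 2644 against all other cells and 953 against Olig-only cells. Of 362 named differences, 354 kept their direction and their side of the threshold under it and 8 lost the call. With DESeq2 35 of the 362 lost the call, and without the expression filter 76 did. Without doublets 45 of 347 lost it. Among cells with no G2/M UMIs, 120 of 254 lost it and 6 changed sign. Against radial glia, 349 genes were called without the expression filter and 351 among OPCs with no G2/M UMIs. Against all other cells, 1100 were called among OPCs with no G2/M UMIs. Against Olig-only cells, 423 were called by DESeq2, 1201 without the filter, 482 with the stricter cell filter, and 1 among OPCs with no G2/M UMIs, where few cells remained. Leaving out the OPC sum of either library gave 1511 to 1549, 2275 to 2813 and 639 to 702 calls in the 3 comparisons, with the lone OPC sum taken to vary like the others. These fits and those without OPCs that held markers of other cell types were chosen after seeing the data. By list, the fit without the expression filter against radial glia left 17 higher identity genes (23 with it), 2 higher ion channel genes (7), and 3 lower dorsal (8), 6 lower neuronal (16) and 1 lower Wnt and BMP gene (9). With the OPC sum of 1 library left out, the list medians against radial glia that moved by over 0.2 included those of the Sox and NFI (-0.61), Wnt and BMP (-0.68), astrocyte (-0.89) and neuron (-1.86) lists. The OPC share was 0.282% with the stricter gate (both Pdgfra and Sox10), and ran from 0.353 to 0.516% with 1 library left out, while the G2/M share ran from 39.3 to 73.2%.

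Some genes changed sign, and the cause was not tested. Against radial glia, these were Cxcl12 without OPCs that held markers of other cell types (-2.58), Apcdd1 under that setting (-2.31) and the stricter gate (-0.46), and Nrg3 with no G2/M UMIs (0.29). Against all other cells, they were Apcdd1 (-2.25 and -0.40 under the same 2 settings), Id3 with the stricter gate (-0.46), Erbb4 and Uhrf1 with no G2/M UMIs (-0.30 and -7.77), and Gli3 with radial glia left out of the reference (0.10). Against Olig-only cells, Erbb4 (-0.42), Nrg1 (0.69) and Unc5c (-0.27) did so with no G2/M UMIs. The 71 cells in 2 libraries limit every result to these libraries, and genes with few UMIs carry wide intervals.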
